A study of Mus musculus with 18 samples.

Results

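The 44 genes described here encode the machinery that copies DNA in S phase, from the MCM2-7 helicase and its loaders to the clamp, the replicative polymerases, nucleotide synthesis, chromatin assembly and the E2F factors that drive the group. They were taken by symbol from a list that was chosen with earlier results of these data known. All 44 were found among the 54309 genes of the lymphocyte count table and among the 13759 genes of the macrophage count table. All 44 passed the filter on low counts in each table, and the MAM table holds no gene under 37 counts in all.

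Livers came from female C57BL/6J mice, 8 to 10 weeks old when MC38 colon carcinoma cells, a mouse line of the same strain, were injected into the spleen, and the livers were taken 20 days later. The labels name no engineered allele and no drug for any group. The 4 lymphocyte populations of 3 libraries each were sorted as lineage-negative CD45+ NKp46+ cells, namely CD49a- CD49b+ NK cells and CD49a+ CD49b- ILC1 from metastasis-free liver (MFL), and CD49a- CD49b+ NK cells and CD49a+ CD49b+ NK cells from the liver metastases (LM). Each lymphocyte library held cells pooled from 6 to 8 MFL or LM samples, so p-values measure the spread between sorted pools. The study describes 3 independent sortings, so libraries of different populations may share animals. The labels do not say which do, and the main fit treats all libraries as independent. The sample titles of the CD49a+ NK libraries from LM call them ILC1, and they were grouped here by their cell type label and their gate. Metastasis-associated macrophages (MAMs) were sorted from LM as lineage-negative CD45+ CD11b+ cells with F4/80 labelled high or low, 3 libraries each, and the study's text calls the low gate intermediate. The labels do not say whether a MAM library pools animals, so which spread the MAM p-values measure is not known. MFL tissue was mashed through a strainer and LM tissue was digested with Liberase and DNase, so the site and the way the tissue was taken apart cannot be told apart.

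Replication begins when Cdc6 and Cdt1 place MCM2-7 rings on origins in G1. In S phase Cdc45 and the GINS complex join the rings and turn them into the active helicase. Polymerase alpha with primase lays down the primers, replication factor C loads the clamp PCNA, and polymerases epsilon and delta extend the leading and lagging strands. E2F factors released from pocket proteins switch these genes on as a block at the G1/S border, so their messenger RNAs are low in resting cells and high in cycling cells. Type 1 lymphocytes of the liver and tissue macrophages are cells in which both states occur. In sorted pools, fewer cycling cells and less of each messenger RNA per cycling cell cannot be told apart.

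Because E2F sites near the start define this block of genes in textbook accounts, the 250 bases before the start of each gene (GRCm39, GENCODE M39, Ensembl canonical transcript) were searched on both strands for TTTCCCGC and TTTGGCGC, for the CHR element TTTGAA of late cell cycle genes, and for the CCAAT box. A perfect copy of either E2F motif was found in 6 of the 44 windows (13.6%), against 352 of 21757 protein-coding genes (1.62%) and 0 of 52 G2/M genes. TTTGAA was found in 2 of 44 windows (4.55%), 17 of 52 G2/M windows (32.7%) and 15.6% of all windows. CCAAT was found in 22 of 44 windows (50%), 31 of 52 G2/M windows (59.6%) and 36.5% of all windows. Each motif was searched as these exact letters, and a window without them says only that these letters are absent there. The windows of 5 genes with an E2F motif are shown for that motif. They are written 5′ to 3′ on the strand of the gene, with the E2F motif in capitals, as TTTGGCGC or TTTCCCGC or as their reverse complements GCGCCAAA and GCGGGAAA. Bases in an annotated exon of any gene were left out, which removed 64 bases of the Mcm6 window that lie in an exon of a nonsense-mediated decay isoform. Mcm6 holds TTTGGCGC at 2 places, 100 and 37 bases before the start, and the sequence printed (chr1:128287517-128287702, minus strand) reaches to 65 bases before the start and shows the farther copy. The Pola1 window is chrX:92675814-92676063, minus strand and the Mcm5 window chr8:75835890-75836139, plus strand, each with the reverse complement of TTTGGCGC, at 86 and 152 bases before the start. The Mcm4 window is chr16:15455265-15455514, minus strand, with TTTCCCGC at 224 bases, and the Dscc1 window is chr15:54953893-54954142, minus strand, with its reverse complement at 237 bases.
Mcm6: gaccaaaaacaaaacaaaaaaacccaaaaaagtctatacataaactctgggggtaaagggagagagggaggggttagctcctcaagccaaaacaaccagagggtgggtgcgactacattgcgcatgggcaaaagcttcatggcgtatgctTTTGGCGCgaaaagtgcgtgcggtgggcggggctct
Pola1: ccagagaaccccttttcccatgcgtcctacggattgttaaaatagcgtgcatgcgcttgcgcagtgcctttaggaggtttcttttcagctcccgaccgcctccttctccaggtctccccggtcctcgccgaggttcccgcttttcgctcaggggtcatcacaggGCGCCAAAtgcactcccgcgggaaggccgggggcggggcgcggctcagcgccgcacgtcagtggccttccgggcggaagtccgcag
Mcm5: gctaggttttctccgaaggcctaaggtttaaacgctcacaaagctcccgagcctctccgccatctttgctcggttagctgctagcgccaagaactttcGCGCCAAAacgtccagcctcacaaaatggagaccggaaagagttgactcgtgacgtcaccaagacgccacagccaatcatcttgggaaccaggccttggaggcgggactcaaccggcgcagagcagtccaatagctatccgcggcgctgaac
Mcm4: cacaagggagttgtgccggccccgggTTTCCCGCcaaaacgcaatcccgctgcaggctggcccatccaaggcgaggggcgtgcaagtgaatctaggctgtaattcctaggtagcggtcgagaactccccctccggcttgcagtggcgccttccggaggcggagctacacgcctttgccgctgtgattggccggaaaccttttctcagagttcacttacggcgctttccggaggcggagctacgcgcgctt
Dscc1: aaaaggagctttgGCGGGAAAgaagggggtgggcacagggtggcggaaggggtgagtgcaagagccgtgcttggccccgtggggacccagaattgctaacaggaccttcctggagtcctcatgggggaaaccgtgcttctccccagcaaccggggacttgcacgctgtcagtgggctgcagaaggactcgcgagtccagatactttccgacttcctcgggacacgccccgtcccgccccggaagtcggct

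Levels are given as counts per 1000000 counts on genes after TMM scaling (CPM). Differences are log2 fold changes with their standard error (SE), tested by quasi-likelihood in edgeR, and p-values carry the Benjamini-Hochberg adjustment over every gene of the table. A gene is said to have risen or fallen where the adjusted p is under 0.1, the false discovery rate the study used. Lymphocyte libraries held 8795721 to 14386834 counts and MAM libraries 21278959 to 32267015. The gates were checked against their defining transcripts. Itga1 (CD49a) stood at 104.6 to 156 CPM in CD49a+ NK cells from LM and 646 to 680.4 in ILC1, against 5.83 to 20.1 in the CD49a- NK groups. Itga2 (CD49b) stood at 65.7, 102 and 219 CPM in CD49a+ NK cells from LM, below all 6 CD49a- NK libraries (241 to 376 CPM) and above ILC1 (25.3 to 54.2 CPM), with replicate 1 the closest to ILC1. Adgre1 (F4/80) stood at 806 to 1167 CPM in F4/80high and 124 to 160.4 CPM in F4/80low MAMs. Pcna has 2 named pseudogenes and Tyms has 1, and Salmon may share reads between near-identical copies, so the levels of these 2 genes are less certain. The lymphocyte and macrophage tables come from different library kits and were tested separately.

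The replication genes were higher in F4/80high than in F4/80low MAMs almost without exception. All 44 fold changes were positive and 42 of 44 rose with edgeR's quasi-likelihood test, where 27.8% of all 13759 genes rose and 54.9% were called in either direction. The median log2 fold change of the 44 genes was 1.02, against 0.01 over all genes, with a range from 0.21 for Gins4 to 1.53 for Hells. In 43 of 44 genes every F4/80high library lay above every F4/80low library, which held for 29.8% of all genes. DESeq2 called 42 and limma-voom 43 of the 44 genes, with 52.3% and 58% of all genes called. The summed level of the 44 genes was 3075, 3563 and 2907 CPM in the F4/80high libraries and 1719, 1737 and 1571 CPM in the F4/80low libraries.

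**Figure D1:**
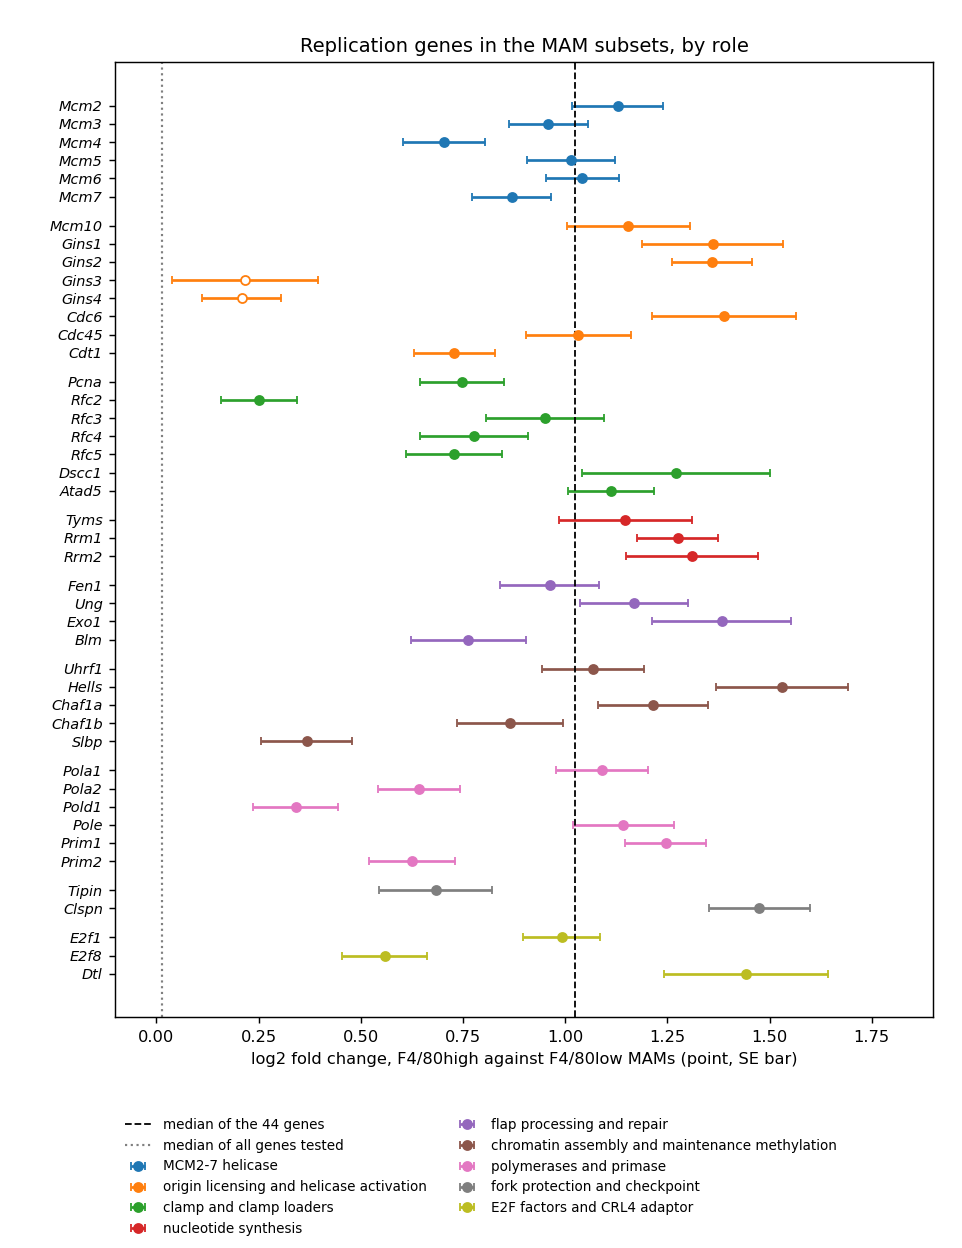
Log2 fold change of each of the 44 genes in F4/80high against F4/80low MAMs (x axis; bars are SE, 3 libraries per group), with genes grouped and coloured by role on the y axis; filled points have adjusted p under 0.1, open points do not, and vertical lines mark the median of the 44 genes (1.02) and of all genes tested (0.01). All 44 points lie to the right of 0, and Gins3 and Gins4 are the 2 open points.

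The 6 subunits of the MCM2-7 ring, the motor of the replicative helicase, all rose, by 0.70 (Mcm4) to 1.13 (Mcm2) on the log2 scale. Mcm6 (ENSMUSG00000026355.12, chr1:128259311-128287516) stood at 238, 273 and 239 CPM in F4/80high and 122, 127 and 116 CPM in F4/80low MAMs (log2 fold change 1.04, SE 0.09, adjusted p = 4.7e-05). Mcm2 stood at 141, 180.3 and 158 CPM against 71.2, 80.3 and 67.98 CPM (log2 fold change 1.13, SE 0.11, adjusted p = 0.000102). For both subunits the lowest F4/80high library exceeded the highest F4/80low library by a wide margin. Mcm3 stood at 202, 236 and 197 against 109, 115 and 103 CPM (0.96, SE 0.10), and Mcm5 at 204, 244 and 199 against 101, 117 and 102 CPM (1.01, SE 0.11). Mcm4 stood at 130.1, 150.4 and 128 against 90.5, 84.8 and 75.7 CPM (0.70, SE 0.10). Mcm7 stood at 148, 167 and 136 against 86.6, 82.7 and 77.96 CPM (0.87, SE 0.10). Each of the 6 genes encodes a subunit of the same ring, and in all 6 F4/80high replicate 2 held the highest of the 3 values, and no group overlapped the other.

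**Figure D2:**
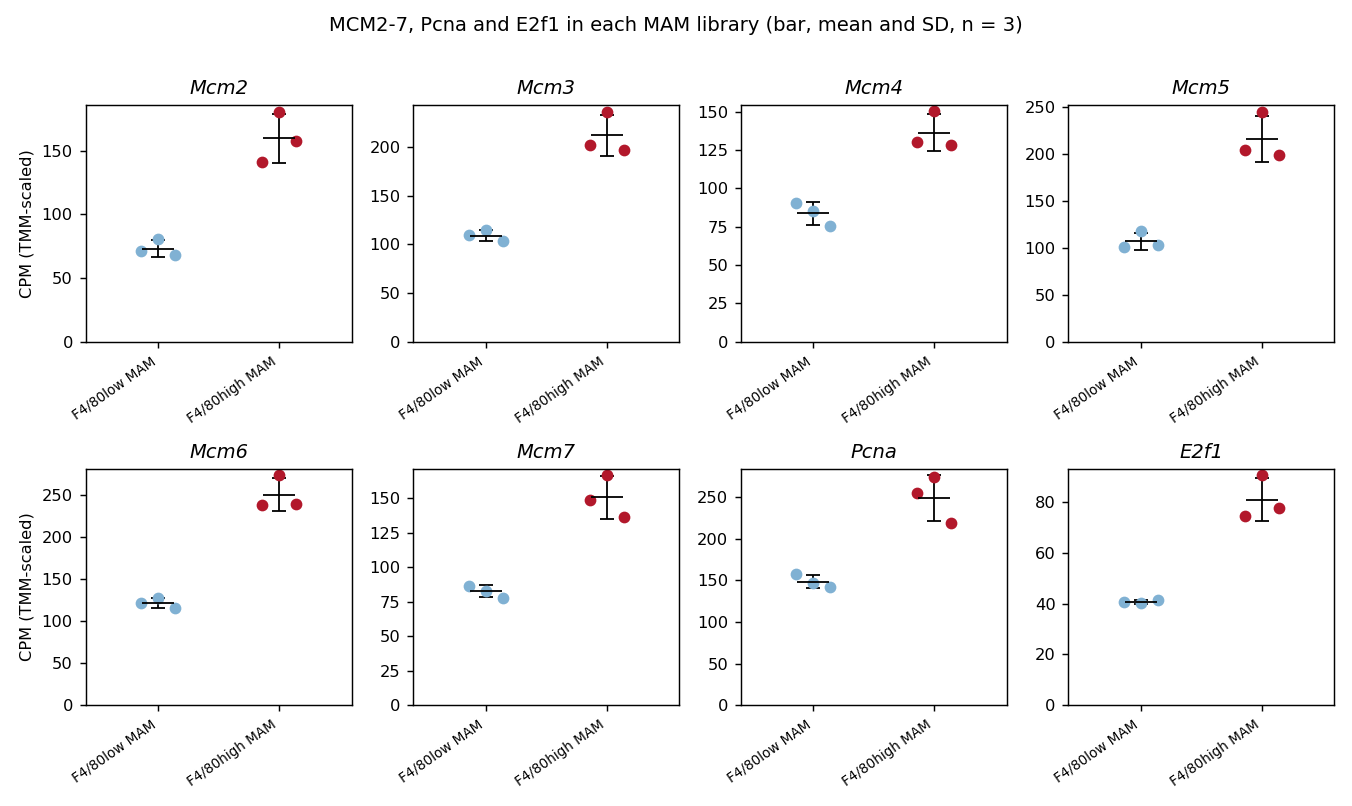
CPM of Mcm2 to Mcm7, Pcna and E2f1 in each MAM library (points; y axis starts at 0), with the mean and SD of 3 libraries per group. In every panel the 3 F4/80high points lie above the 3 F4/80low points, for example 255, 274 and 219 against 157, 146 and 142 CPM for Pcna.

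Of the 8 genes of origin licensing and helicase activation, 6 rose. Gins2, a subunit of the GINS complex that joins MCM2-7 at the origin, had the smallest p of the 44 genes. It stood at 31.6, 33.6 and 28.96 CPM in F4/80high and 12.9, 12.3 and 11.5 CPM in F4/80low MAMs (log2 fold change 1.36, SE 0.10, adjusted p = 2.03e-05). Gins1 rose by 1.36, but the other 2 GINS subunits did not pass the threshold. Gins3 stood at 7.74, 9.64 and 7.26 against 7.29, 7.96 and 5.92 CPM (log2 fold change 0.22, SE 0.18, adjusted p = 0.35), with overlapping groups. Gins4 stood at 25.6, 24.5 and 22.5 against 21.97, 19.2 and 21.6 CPM (log2 fold change 0.21, SE 0.10, adjusted p = 0.109), with no overlap. The 4 subunits of 1 complex thus had fold changes on the log2 scale of 1.36, 1.36, 0.22 and 0.21 (SE 0.17, 0.10, 0.18 and 0.10), and the difference between subunits was not tested. The loaders Cdc6 and Cdt1 rose by 1.39 and 0.73, Cdc45 by 1.03, and Mcm10, which takes part in activating the helicase, by 1.15.

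The clamp and all 6 clamp-handling genes rose. Pcna, the sliding clamp, went from 157, 146 and 142 CPM in F4/80low to 255, 274 and 219 CPM in F4/80high MAMs (log2 fold change 0.75, SE 0.10, adjusted p = 0.00056). Atad5, which unloads the clamp, stood at 22.2, 24.1 and 22.02 against 10.8, 11.2 and 9.5996 CPM (log2 fold change 1.11, SE 0.11, adjusted p = 8.02e-05). The 4 small subunits of replication factor C rose by 0.25 (Rfc2), 0.95 (Rfc3), 0.78 (Rfc4) and 0.73 (Rfc5), and Dscc1, of an alternative clamp loader, by 1.27. Rfc2 had the largest adjusted p of the 42 genes that rose (0.0568), and its adjusted p passed 0.1 when F4/80high replicate 1 or 2 or F4/80low replicate 2 or 3 was left out.

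All 6 polymerase and primase genes rose, over a wide range. Prim1, the catalytic primase subunit, stood at 28.5, 31.4 and 27.1 CPM in F4/80high and 12.9, 12.2 and 11.5 CPM in F4/80low MAMs (log2 fold change 1.25, SE 0.10, adjusted p = 3.33e-05). Pole, the leading-strand polymerase, rose by 1.14 (SE 0.12) and Pola1, the catalytic subunit of polymerase alpha, by 1.09 (SE 0.11). Pold1, the catalytic subunit of the lagging-strand polymerase, rose by 0.34 (SE 0.10, adjusted p = 0.0261). The partner subunits Pola2 and Prim2 rose by 0.64 and 0.63, against 1.09 and 1.25 for Pola1 and Prim1, and these gaps were not tested.

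Nucleotide synthesis, fork and chromatin genes rose as well. Rrm1, the large subunit of ribonucleotide reductase, stood at 205, 217 and 177 CPM in F4/80high and 83.7, 85.96 and 77.6 CPM in F4/80low MAMs (log2 fold change 1.27, SE 0.10, adjusted p = 2.99e-05), and its small subunit Rrm2 and thymidylate synthase Tyms rose by 1.31 and 1.15. Clspn, which relays the stalled-fork signal from ATR to Chk1, stood at 36.6, 37.7 and 33.4 against 13.5, 14.4 and 10.7 CPM (log2 fold change 1.47, SE 0.12, adjusted p = 4.27e-05). The fork protection gene Tipin rose by 0.68. The flap and repair genes Fen1, Ung, Exo1 and Blm rose by 0.96, 1.17, 1.38 and 0.76. Among chromatin genes the remodeller Hells had the highest fold change of all 44 (1.53, SE 0.16). The CAF-1 subunits Chaf1a and Chaf1b rose by 1.21 and 0.86, and Uhrf1, which guides maintenance methylation, by 1.07. Slbp, which binds histone messenger RNA, rose by 0.37.

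E2f1, an activating E2F, stood at 74.5, 90.7 and 77.9 CPM in F4/80high and 40.6, 40.2 and 41.5 CPM in F4/80low MAMs (log2 fold change 0.99, SE 0.09, adjusted p = 8.04e-05). E2f8, a repressing E2F that is itself a target, rose by 0.56, and Dtl, the adaptor that marks Cdt1 for destruction in S phase, by 1.44. The 6 genes with an E2F motif in their window had a median log2 fold change of 1.03, and the 38 without it 1.01.

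Outside the 44 genes, further replication genes went the same way less uniformly. Of 40 other replication genes 29 rose and 1 fell (median 0.63). For this and the next lists, 27.8% of all genes rose and 27.1% fell. The ligase Lig1 rose by 1.18, while Dna2, a nuclease and helicase of flap processing and end resection, fell from 122, 129 and 104 CPM in F4/80low to 40.97, 41.1 and 39.2 CPM in F4/80high MAMs (log2 fold change -1.55, SE 0.10, adjusted p = 1.04e-05). Of 19 other nucleotide synthesis genes tested 13 rose and 2 fell (median 0.40). The thymidine kinase Tk1 rose by 1.91. Samhd1, which degrades deoxynucleotides and restricts viruses in myeloid cells, fell from 1059, 879 and 970.3 to 411, 312 and 399.7 CPM (-1.37, SE 0.13). Of 14 other E2F and pocket protein genes 10 rose and 1 fell. The repressor E2f7 rose by 1.65, and E2f2, an activating E2F, was the gene that fell, from 83.7, 95.7 and 76.6 to 51.8, 56.7 and 47.5 CPM (-0.71, SE 0.11). Of 52 G2/M genes 50 rose (median 1.25), among them Anln, a cytokinesis scaffold, by 2.00.

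The MAM groups differed broadly, and other features moved with the replication genes. The summed level of 8 macrophage markers was 17987 to 23354 CPM in F4/80high and 9067 to 11373 CPM in F4/80low MAMs, and that of 6 monocyte markers 439 to 557 against 1927 to 2039 CPM. Of 9 tumour epithelium markers 2 were in the table, Cdh1 and Epcam, and the keratins were not. Cdh1 and Epcam summed to 8.302 to 11.8 CPM in F4/80high and 197 to 281 CPM in F4/80low MAMs. The 4 hepatocyte markers measured summed to 363 to 727 against 213 to 244 CPM. Nearly all of this sum was Trf, at 473, 353 and 726 against 242, 208 and 236 CPM. Alb stood at 5.00, 6.84 and 1.23 against 1.74, 3.59 and 1.43 CPM. The 5 B cell markers summed to 18.6 to 36.9 against 6.36 to 19.7 CPM. The 7 T cell markers summed to 6.52 to 15.4 against 8.91 to 25.9 CPM, the 6 NK markers measured to 1.098 to 3.42 against 7.22 to 27.05, and the 6 ILC1 markers measured to 46.8 to 69.5 against 93.4 to 112. The 4 erythroid markers measured summed to 1.49 to 42.6 against 2.08 to 100.1 CPM, and the 3 neutrophil markers measured to 0.0354 to 0.3602 against 4.098 to 75.1. The part of these differences in the replication result was not tested. Within F4/80high MAMs replicate 2 was highest for 41 of 44 genes and replicate 3 lowest for 33, and without replicate 2 the median of the 44 genes was 0.92.

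In the 12 lymphocyte libraries the picture was far weaker, and the spread between libraries was larger. The median coefficient of variation over the 44 genes was 24.1% in NK cells from MFL, 73.0% in CD49a- NK cells from LM, 42.6% in CD49a+ NK cells from LM and 31.2% in ILC1, against 8.46% and 12.1% in F4/80low and F4/80high MAMs. The group with the highest mean was CD49a+ NK cells from LM for 23 of 44 genes, CD49a- NK cells from LM for 10, NK cells from MFL for 8 and ILC1 for 3. The lowest mean was in ILC1 for 22 genes. The summed level of the 44 genes was 2433, 1939.7 and 1776 CPM in CD49a+ NK cells from LM, 1512, 1787 and 1460.4 CPM in CD49a- NK cells from LM, 1480.2, 1682 and 1708 CPM in NK cells from MFL and 1320.05, 1247 and 1203 CPM in ILC1. In this sum CD49a+ NK cells from LM lay above NK cells from MFL and above ILC1 without overlap, both CD49a- NK groups lay above ILC1 without overlap, and CD49a- NK cells from LM overlapped NK cells from MFL and, in 1 library, CD49a+ NK cells from LM. Counts of 0 were present for 8, 7 and 1 of the 44 genes in the CD49a- NK libraries from LM, for 3, 0 and 3 in the CD49a+ NK libraries from LM and for 1, 0 and 0 in ILC1, and for none in NK cells from MFL. The CD49a- NK libraries from LM held 9885, 9608 and 12601 genes with at least 10 counts. The range was 10511 to 12093 in CD49a+ NK cells from LM, 11780 to 13205 in NK cells from MFL and 11651 to 13218 in ILC1. The part of this in the replication values was not tested.

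**Figure D3:**
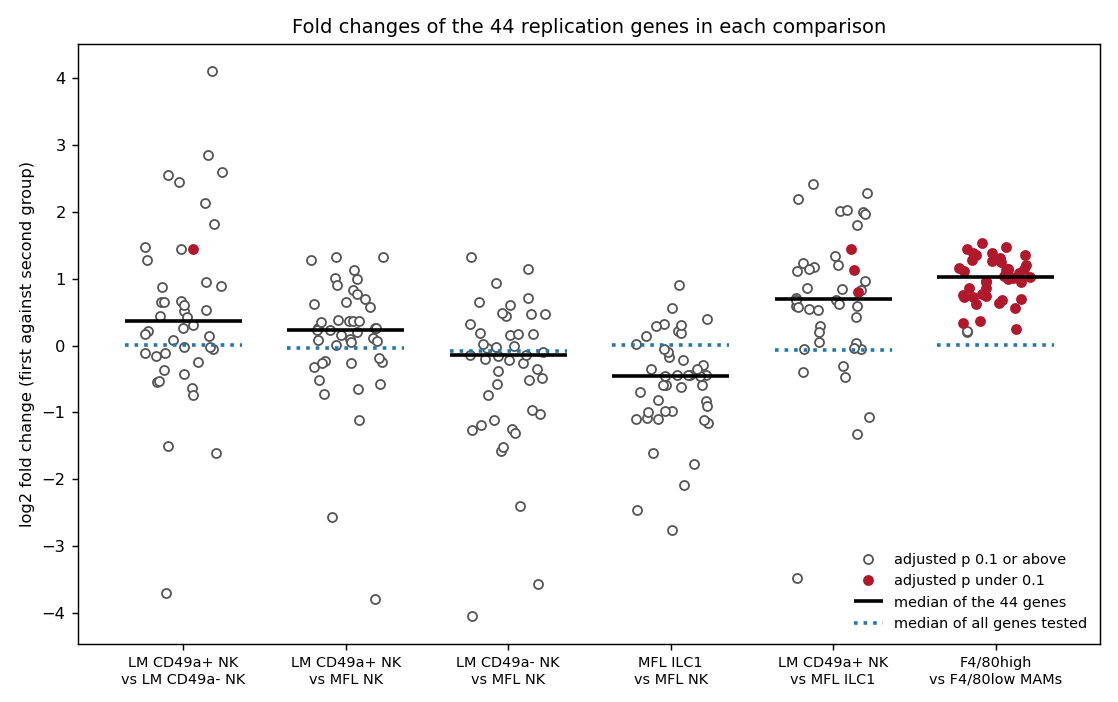
Fitted log2 fold changes of the 44 genes (points; jittered sideways) in the 5 lymphocyte comparisons and the MAM comparison, with red points for adjusted p under 0.1, a black line at the median of the 44 genes and a dotted blue line at the median of all genes tested. The medians of the 44 genes are 0.37, 0.24, -0.15, -0.45, 0.70 and 1.02 from left to right, and the lymphocyte comparisons share libraries with each other.

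Within LM, CD49a+ NK cells were compared with the CD49a- NK cells of the same site. Mcm7, a subunit of the helicase ring (ENSMUSG00000029730.17, chr5:138162844-138170684), was the gene that rose. It stood at 147, 117 and 89.5 CPM in the CD49a+ and 41.4, 44.6 and 44.03 CPM in the CD49a- NK libraries (log2 fold change 1.44, SE 0.29, adjusted p = 0.0887, edgeR's quasi-likelihood test). Every CD49a+ library was at least 89.5 CPM, and the CD49a- libraries lay within a few CPM of each other. Of the 44 genes, 28 had a positive and 16 a negative fold change, 1 rose and 0 fell, where 0.0662% of all 13594 genes tested rose and 0.0736% fell, 0.14% in all. At an unadjusted p under 0.05 there were 7 of the 44 genes (15.9%), all positive, beside 11.6% of all genes, with 5.92% in the positive direction. The median log2 fold change was 0.37, against 0.01 over all genes, and it was 0.77 with limma-voom, 0.24 without CD49a+ NK replicate 1 and 0.57 without CD49a- NK replicate 2. Left out in turn, the 12 libraries gave adjusted p values of 0.048 to 0.286, and the call held in 4 of 12 cases, without CD49a- NK replicate 2 or 3, without CD49a+ NK replicate 3 or without ILC1 replicate 1. DESeq2 called 4 of the 44 genes, Mcm7, Pole, Chaf1a and Rfc4 (3.99% of all genes called), limma-voom called 0 of the 44 and 0 of all genes, and an edgeR fit of the 2 groups alone called 0 of the 44 with 0.0809% of all genes called. Without CD49a- NK replicate 3, edgeR called 3 of the 44 genes. With the replicate number as a block, edgeR called 0 of the 44, and 24 of all 13594 genes.

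All 6 MCM2-7 subunits had positive fold changes in this comparison. Mcm5 stood at 126, 87.3 and 94.8 CPM in the CD49a+ and 42.004, 82.5 and 43.5 CPM in the CD49a- libraries (log2 fold change 0.87, SE 0.32, adjusted p = 0.375), Mcm4 at 119, 96.3 and 121 against 90.4, 65.4 and 75.5 CPM (0.54, SE 0.28). Those 2 subunits and Mcm7 had groups that did not overlap. Mcm3 stood at 217, 97.9 and 94.9 against 76.4, 127 and 54.6 CPM (0.67, SE 0.37), with CD49a+ replicate 1 far above every other library. Mcm2 stood at 81.7, 101 and 77.3 against 79.7, 72.2 and 41.1 CPM (0.43, SE 0.32), and Mcm6 at 242, 245 and 215 against 193, 216 and 196 CPM (0.22, SE 0.21), both with overlapping groups. Over the 44 genes, 9 had all CD49a+ libraries above all CD49a- libraries (5.72% of all genes) and 3 had them below (4.1%).

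**Figure D4:**
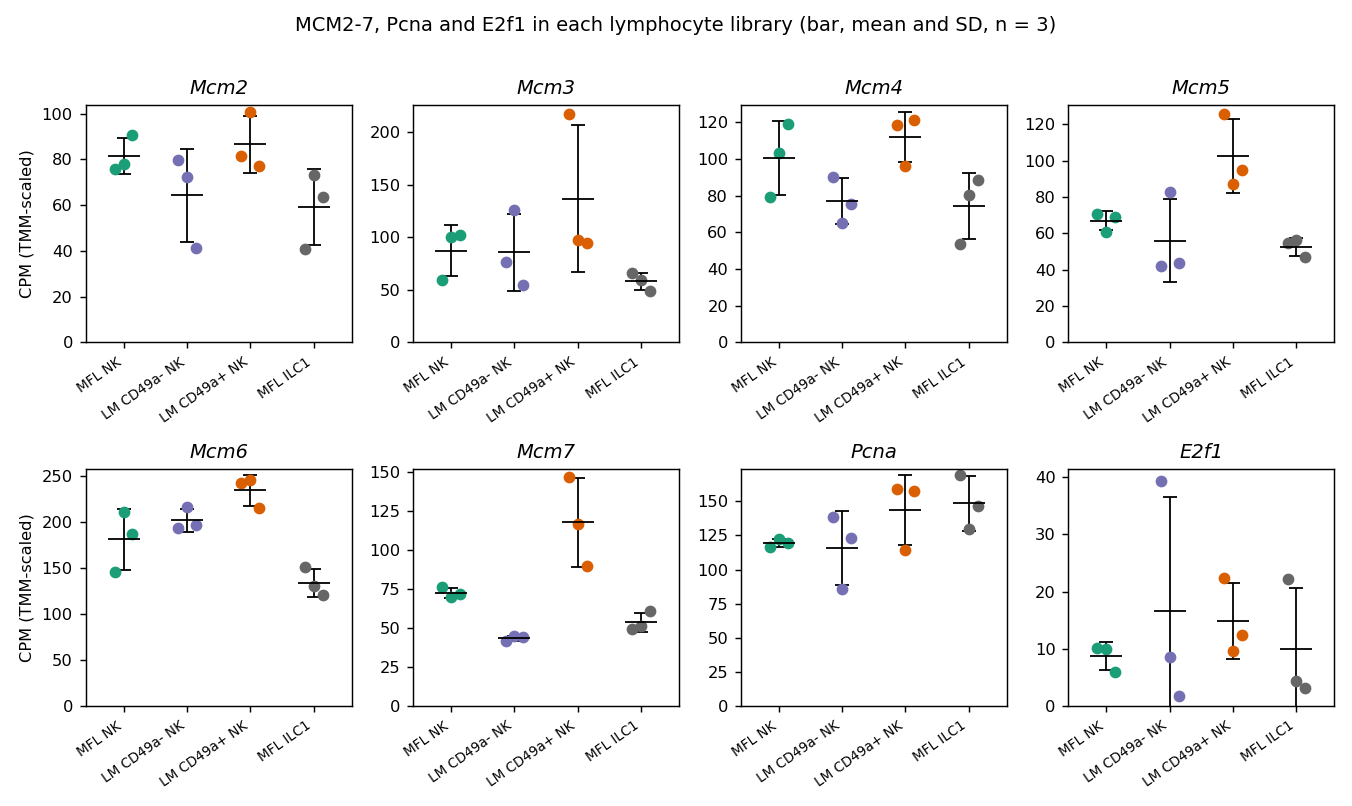
CPM of Mcm2 to Mcm7, Pcna and E2f1 in each of the 12 lymphocyte libraries (points; y axis starts at 0, where SD bars of E2f1 are cut off), with the mean and SD of 3 libraries per group. The Mcm7 panel shows the separated groups of 147, 117 and 89.5 CPM in CD49a+ and 41.4, 44.6 and 44.03 CPM in CD49a- NK cells from LM, and the E2f1 panel shows 1 CD49a- NK library at 39.3 CPM beside others at 8.64 and 1.81 CPM.

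After Mcm7, the genes with the smallest p were Pole and Chaf1a. Pole (ENSMUSG00000007080.15, chr5:110434172-110486287), the leading-strand polymerase, stood at 56.2, 30.04 and 38.2 CPM in CD49a+ and 11.1, 12.6 and 11.6 CPM in the CD49a- libraries from LM (log2 fold change 1.81, SE 0.51, adjusted p = 0.28). Chaf1a, the large subunit of the histone chaperone CAF-1, stood at 58.7, 24.2 and 52.3 against 6.35, 5.54 and 18.8 CPM (log2 fold change 2.13, SE 0.68, adjusted p = 0.324). Both had groups without overlap, yet neither passed the threshold over all genes. Further clamp genes with an unadjusted p under 0.05 were Atad5, Rfc4 and Rfc5, with log2 fold changes of 2.55 (SE 0.97), 4.11 (SE 1.69) and 1.48 (SE 0.64). Atad5 and Rfc4 were at 0 in 1 and 2 of the 3 CD49a- libraries. Atad5 is also in the CD49a+ NK signature of the study. That signature was drawn from the same bulk RNA-seq as the values here, so it is not separate evidence. Pcna stood at 159, 114 and 158 against 139, 86.1 and 123 CPM (0.31, SE 0.24) and E2f1 at 22.4, 9.699 and 12.5 against 39.3, 8.64 and 1.81 CPM (-0.16, SE 1.07), neither with separated groups. The sign of E2f1 rested on single libraries, and the value was 1.51 without CD49a- NK replicate 1 and 0.07 without CD49a+ NK replicate 2. By role, positive fold changes were found for 6 of 6 MCM2-7 genes, 5 of 8 licensing genes, 6 of 7 clamp genes, 3 of 6 polymerase genes, 3 of 3 nucleotide genes, 1 of 4 flap and repair genes, 3 of 5 chromatin genes, 1 of 2 fork genes and 0 of 3 E2F genes.

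Of the other lists, 43 of 51 G2/M genes tested had a positive fold change within LM (median 0.84), and 0 were called by edgeR. At an unadjusted p under 0.05 there were 14, all positive, beside 11.6% of all genes, with 5.92% in the positive direction. The marker sums without overlap between these groups were those of ILC1, 267 to 361 CPM in CD49a+ and 31.7 to 71.6 CPM in CD49a- NK cells, and of tumour epithelium, 23.8 to 51.5 against 0 to 8.43 CPM. The tumour epithelium sum in CD49a+ NK cells came from Cdh1 and Epcam, and the other 7 of 9 markers, the keratins among them, were at 0 in all 3 libraries. NK markers summed to 3523 to 4511 against 4503 to 7513 CPM, T cell markers to 5.18 to 35.7 against 11.9 to 17.7 CPM and erythroid markers to 82.4 to 242 against 119 to 594 CPM. Their part in the replication values was not tested.

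The comparison of CD49a+ NK cells from LM with ILC1 from MFL sets the 2 CD49a+ populations side by side. Mcm7, Mcm6 and Pold1 rose, which is 3 of the 44 genes, and 0 fell, where 2.29% of all genes rose and 1.29% fell with edgeR's quasi-likelihood test, 3.58% in all. Mcm7 stood at 147, 117 and 89.5 CPM in CD49a+ NK cells from LM and 49.3, 51.02 and 60.8 CPM in ILC1 (log2 fold change 1.13, SE 0.28, adjusted p = 0.0423). Mcm6 stood at 242, 245 and 215 against 150.3, 131 and 119.9 CPM (log2 fold change 0.81, SE 0.21, adjusted p = 0.0588). Pold1 (ENSMUSG00000038644.15, chr7:44182168-44198349), the lagging-strand polymerase, stood at 134, 64.4 and 60.2 against 29.03, 32.9 and 33.1 CPM (log2 fold change 1.45, SE 0.38, adjusted p = 0.0597). For each of the 3 genes the groups did not overlap, and in Pold1 replicate 1 of the CD49a+ group stood at about the sum of its other 2 libraries. Of the 44 genes 35 had a positive fold change, and 12 (27.3%) had an unadjusted p under 0.05, all positive, beside 14.1% of all genes, with 6.55% in the positive direction. The median was 0.70, and -0.07 for the whole table. All libraries of CD49a+ NK cells from LM lay above all ILC1 libraries for 16 genes (9.33% of all genes) and below for 2 (13.9%).

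The 16 genes with separated groups included all 6 MCM2-7 subunits. Mcm3 stood at 65.6, 59.6 and 48.98 CPM in ILC1 (log2 fold change 1.24, SE 0.38, adjusted p = 0.114), Mcm5 at 54.6, 56.3 and 46.8 CPM (log2 fold change 0.97, SE 0.32, adjusted p = 0.161) and Mcm4 at 53.8, 80.7 and 88.7 CPM (log2 fold change 0.59, SE 0.28, adjusted p = 0.352). Mcm2 stood at 40.9, 73.05 and 63.8 CPM in ILC1 (log2 fold change 0.55, SE 0.32, adjusted p = 0.505). Pcna had a fold change near 0, at 169.6, 129.6 and 147 CPM in ILC1 (log2 fold change -0.05, SE 0.24, adjusted p = 0.975), with overlapping groups. E2f1 stood at 22.2, 4.32 and 3.22 CPM in ILC1 (log2 fold change 0.58, SE 1.07, adjusted p = 0.922). All 6 polymerase and primase genes, 3 of 3 E2F genes and 2 of 2 fork genes had positive fold changes here. DESeq2 called 9 and limma-voom 10 of the 44 genes higher, with 7.43% and 6.88% of all genes called, and an edgeR fit of the 2 groups alone called 4 (3.67%). Each of the 3 calls was lost in 4 of the 12 cases that left out 1 library, each time libraries of the 2 groups compared. Mcm7 and Pold1 were lost without any 1 ILC1 library or without CD49a+ NK replicate 1, and Mcm6 without ILC1 replicate 2 or 3 or without CD49a+ NK replicate 1 or 2, with adjusted p up to 0.199, 0.312 and 0.278. Without CD49a- NK replicate 2, 8 of the 44 genes were called. Site and cell type differ together in this comparison, and so do several marker sums, without overlap. T cell markers summed to 5.18 to 35.7 CPM in CD49a+ NK cells from LM and 247 to 681 CPM in ILC1, mostly Cd3g. In the same order, hepatocyte markers summed to 11.97 to 34.3 and 107 to 134 CPM and monocyte markers to 864 to 1238 and 143 to 280 CPM. Tumour epithelium markers summed to 23.8 to 51.5 and 59.3 to 95.2 CPM, and ILC1 markers to 267 to 361 and 2131 to 2187 CPM. The part of these differences in the replication values was not tested. Among G2/M genes 7 of 51 rose, where 2.29% of all genes rose, led by Top2a (2.79, SE 0.37) and Mki67 (2.28, SE 0.37). Of the other lists, Lig1 (1.29, SE 0.38) among 40 replication genes and Impdh2 (1.29, SE 0.36), of purine synthesis, among 19 nucleotide genes rose.

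Against NK cells from MFL, CD49a+ NK cells from LM had 31 of 44 positive fold changes with a median of 0.24 (-0.04 over all genes). None was called by edgeR's quasi-likelihood test, where 0.427% of all genes rose and 0.221% fell, and 2 of the 44 (4.55%) had an unadjusted p under 0.05, below the 9.74% of all genes. The median was 0.14 with limma-voom and 0.10 without CD49a+ NK replicate 1. DESeq2 called 0 and limma-voom 1, Atad5, with 2.69% and 2.26% of all genes called, and an edgeR fit of the 2 groups alone called 0 (0.78%). The smallest p values belonged to Pold1, at 134, 64.4 and 60.2 CPM in CD49a+ NK cells from LM and 37.2, 50.05 and 42.4 CPM in NK cells from MFL (log2 fold change 1.00, SE 0.38, adjusted p = 0.408). Mcm7 stood at 76.3, 69.8 and 71.7 CPM in NK cells from MFL (log2 fold change 0.70, SE 0.28, adjusted p = 0.435) and Mcm5 at 70.8, 60.95 and 68.8 CPM (log2 fold change 0.62, SE 0.32, adjusted p = 0.58). All 3 were separated from the CD49a+ NK libraries, and 7 of the 44 genes were so in the same direction (7.06% of all genes). For Mcm2, Mcm3, Mcm4 and Mcm6 the NK cells from MFL stood at 75.9, 77.98 and 90.7, at 59.3, 100.02 and 103, at 79.3, 104 and 119 and at 146, 210.4 and 186 CPM, with log2 fold changes of 0.09, 0.65, 0.16 and 0.37. Of these 4, Mcm6 alone had groups without overlap.

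CD49a- NK cells, sorted by the same gate at both sites, showed 16 positive and 28 negative fold changes in LM against MFL, with a median of -0.15 (-0.09 over all genes). None was called by edgeR's quasi-likelihood test (0.0736% of all genes were called and 0.00736% fell), and 3 of the 44 (6.82%) had an unadjusted p under 0.05, all negative, a share near the 6.72% of all genes. The median was -0.56 with limma-voom, -0.10 with DESeq2, -0.04 and -0.42 without CD49a- NK replicate 1 and 2, and -0.08 without replicate 2 of the NK cells from MFL. The 3 genes are given because their p was smallest, and none passed the threshold. Pole stood at 11.1, 12.6 and 11.6 CPM in LM and 29.2, 35.8 and 40.5 CPM in MFL (log2 fold change -1.58, SE 0.51, adjusted p = 0.602), and Mcm7 at 41.4, 44.6 and 44.03 against 76.3, 69.8 and 71.7 CPM (log2 fold change -0.74, SE 0.28, adjusted p = 0.723). Rfc4, a clamp loader subunit, stood at 0, 0 and 1.89 against 15.7, 8.92 and 8.002 CPM (log2 fold change -4.05, SE 1.69, adjusted p = 0.723). In these 3 genes each LM library lay below each MFL library, as in 6 of the 44 genes (12% of all genes), and 1 gene, Slbp, was above (4.27%). DESeq2 called Pole alone of the 44 genes (1.18% of all genes called), limma-voom called 0 (0.765%), an edgeR fit of the 2 groups alone called 0 (0.0368%), and edgeR called Rfc4 when CD49a- NK replicate 3 was left out. The CD49a- NK libraries from LM left in that fit held no Rfc4 counts. Pcna and E2f1 stood at 116, 122 and 119 CPM and 10.2, 9.95 and 5.87 CPM in NK cells from MFL, with log2 fold changes of -0.04 (SE 0.24) and 0.93 (SE 1.08).

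Within MFL, most of the 44 genes had a lower fitted level in ILC1 than in NK cells, and none passed the threshold. Of the 44 genes 34 had a negative fold change, and the median was -0.45 (0.01 for the whole table). The test was edgeR's quasi-likelihood test, where 1.68% of all genes fell and 1.38% rose, 3.06% in all, and 1 of the 44 (2.27%) had an unadjusted p under 0.05, below the 8.37% of all genes. In 16 of 44 genes all ILC1 libraries lay below all NK libraries (13.1% of all genes) and in 1, Pcna, above (12.2%). Pole stood at 16.3, 18.9 and 13.8 CPM in ILC1 and 29.2, 35.8 and 40.5 CPM in NK cells (log2 fold change -1.11, SE 0.50, adjusted p = 0.544), and Rrm2, the small subunit of ribonucleotide reductase, at 5.77, 9.59 and 7.295 against 29.97, 22.1 and 16.8 CPM (log2 fold change -1.60, SE 0.77, adjusted p = 0.612). Mcm6 stood at 150.3, 131 and 119.9 against 146, 210.4 and 186 CPM (log2 fold change -0.44, SE 0.21, adjusted p = 0.639), with 1 ILC1 library inside the range of the NK libraries. The number of calls differed between tools. A fit of these 6 libraries alone called 3 genes lower, Pola1, Pole and Rrm2, with 8.92% of all genes called, DESeq2 called 0 with 4.91%, and limma-voom with quality weights called 16 with 19.5%. Of 51 G2/M genes Top2a (-1.62, SE 0.36) and Mki67 (-1.35, SE 0.36) fell. Marker sums without overlap between ILC1 and NK cells from MFL were those of T cells (247 to 681 against 4.98 to 14.7 CPM), tumour epithelium (59.3 to 95.2 against 0.516 to 2.53 CPM), monocytes (143 to 279.97 against 1158 to 1426 CPM), ILC1 (2131 to 2187 against 31.7 to 42.8 CPM) and NK cells (3002 to 3858 against 5326 to 8409.9 CPM). Their part in the replication values was not tested.

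Whether the difference that goes with CD49a has the same size in LM and MFL was tested directly, as the LM difference of CD49a+ from CD49a- NK cells minus the MFL difference of ILC1 from NK cells. It was positive for 32 of 44 genes, and the median was 0.99 (0.04 for the whole table). Mcm7 (difference of log2 fold changes 1.87, SE 0.40, adjusted p = 0.0372) and Pole (difference 2.92, SE 0.72, adjusted p = 0.0866) passed the threshold of edgeR's quasi-likelihood test, where 0.625% of all genes passed in this direction and 0.405% in the other. For both genes the CD49a+ population was above the CD49a- population in LM and below it in MFL. Of these differences only that of Mcm7 in LM passed the threshold when taken alone. At an unadjusted p under 0.05 there were 10 of the 44 genes (22.7%), all positive, among them 5 of the 6 MCM2-7 subunits, beside 8.7% of all genes, with 4.6% in the positive direction. The populations compared with NK cells differ between the sites, being CD49b+ in LM and CD49b- in MFL. The Mcm7 call was lost without any of the 3 libraries of NK cells from MFL or without ILC1 replicate 2, with adjusted p from 0.107 to 0.135. The Pole call held in 4 of 12 such cases, without any 1 of the CD49a- NK libraries from LM or without CD49a+ NK replicate 2, and was lost in the other 8 with adjusted p from 0.116 to 0.321. Without CD49a- NK replicate 2 or 3, 4 of the 44 genes passed. DESeq2 passed 3 genes and limma-voom 1, Mcm7, with 2.57% and 1.32% of all genes called.

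**Figure D5:**
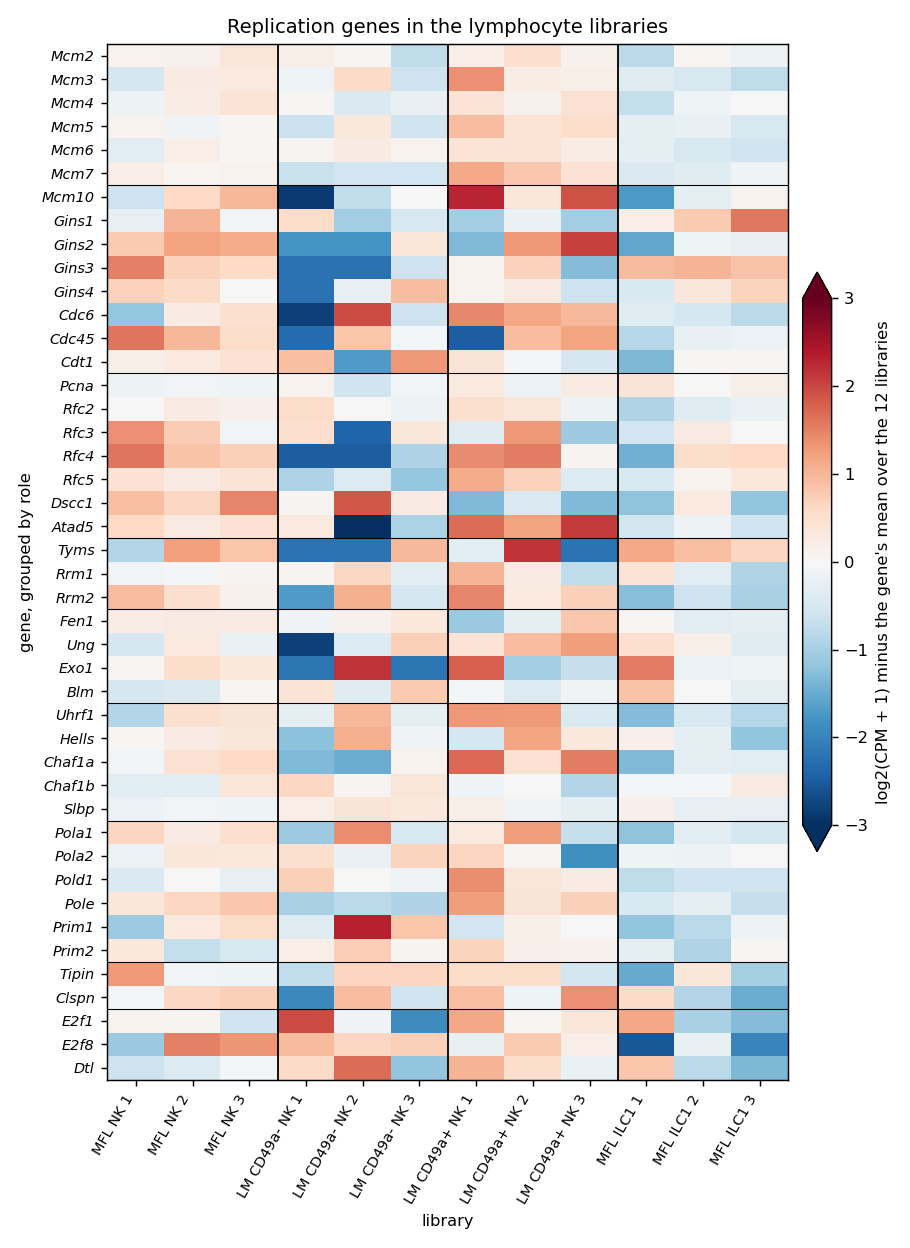
Level of each of the 44 genes (rows, grouped by role) in each of the 12 lymphocyte libraries (columns, grouped by population), as log2(CPM + 1) minus the mean of the gene over the 12 libraries, with the colour scale cut off at -3 and 3. The Mcm7 and Pole rows are blue in all CD49a- NK libraries from LM and red in all CD49a+ NK libraries from LM, while most rows change colour between libraries of the same population.

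Levels per kilobase of merged exon length ordered the genes in much the same way in every population at the top of the list. Pcna was highest, at 104 ± 11.7 CPM per kb in F4/80high MAMs (SD, n = 3), 61.9 ± 3.299 in F4/80low MAMs, 61.9 ± 8.37 in ILC1, 59.8 ± 10.6 in CD49a+ NK cells from LM, 48.3 ± 11.3 in CD49a- NK cells from LM and 49.7 ± 1.25 in NK cells from MFL. Mcm6 came next in all 6 groups, at 22.4 ± 1.03 to 46.1 ± 3.66 CPM per kb. In CD49a- NK cells from LM the libraries of Pcna (35.9 to 57.8 CPM per kb) and Mcm6 (35.5 to 39.7 CPM per kb) overlapped, so their order there lies within the spread. The merged exon length counts exons of all annotated isoforms, and levels per kilobase of long or alternatively spliced genes are lower for it.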

How the data were processed

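RNA-seq of sorted mouse cells was measured in 12 lymphocyte and 6 MAM libraries. For lymphocytes the authors trimmed reads with Trim Galore, estimated counts with Salmon 1.5.0 on GRCm39 with GENCODE M27 and summed them per gene with tximport 1.28.0. For MAMs the processing notes name Trim Galore, Salmon 1.10.0 and GRCm39, and the further steps are not given in the sources used here. The deposited values are estimated (expected) counts, as whole numbers without normalization. The MAM table holds no gene under 37 counts in all, so a filter came before deposit. The lymphocyte kit was SMARTer Stranded Total RNA pico and the MAM kit Nextflex directional with poly(A) selection.

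Gene IDs were matched to symbols through GENCODE M39 (53700 of 54309 and 13726 of 13759 IDs), unmatched IDs stayed in the tests, and genes were kept by filterByExpr, which left 13594 of 54309 and 13759 of 13759 genes. One TMM-scaled quasi-likelihood fit per table (edgeR 4.0.16, R 4.3.3) with group as the only term gave every comparison, with Benjamini-Hochberg adjustment and a threshold of 0.1. The fit was tested on simulated data. Alternatives were DESeq2 1.42.0 and its size factors, limma-voom 3.58.1 with quality weights, no filter, a replicate block, fits of 2 groups and leaving out each library. Per-library values are given for Mcm2-7, Pcna, E2f1 and, per comparison, for up to 6 called genes with the smallest p, or the 3 smallest where fewer than 3 were called. Genes of the other lists are named by smallest p. Dna2, Samhd1, E2f2, the GINS subunits and further genes given by role were named beside that rule. The window of 1 further gene with an E2F motif and the values of 1 gene of the other lists are not reported here. The 44 genes and all lists were chosen with earlier results of these data known. Depth was 8795721 to 14386834 and 21278959 to 32267015 counts.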

Additional observations from a re-analysis of the deposited data

Results flagged for a closer look

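For 2 of the 44 genes the difference that goes with CD49a was not the same at both sites by the direct test of the difference. The difference of log2 fold changes, CD49a+ minus CD49a- NK cells in LM less ILC1 minus NK cells in MFL, was 1.87 for Mcm7 (adjusted p = 0.0372) and 2.92 for Pole (adjusted p = 0.0866) with edgeR's quasi-likelihood test. The fitted values of both were positive in LM and negative in MFL. Taken alone, Mcm7 passed the threshold in LM, Pole did not, and neither gene did in MFL. With 1 library left out, the Mcm7 call was lost in 4 of 12 cases and the Pole call in 8. The CD49a+ population is CD49b+ in LM and CD49b- in MFL.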

How the results depend on the processing

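In MAMs 41 to 43 of the 44 genes rose under every alternative run, and the median log2 fold change was 0.92 to 1.07 with 1 library left out and 0.99 to 1.02 otherwise. The lymphocyte counts of called members depended on the settings, and the cause was not tested. For CD49a+ against CD49a- NK cells in LM, where 1 rose, 2 rose without the filter, 4 with DESeq2, 0 with limma-voom, 0 in the fit of the 2 groups and 0 to 3 with 1 library left out, and limma-voom put the median at 0.77. E2f1 in this comparison had a log2 fold change of -0.16, and of 1.285 with limma-voom, 0.55 with the replicate block and -0.70 to 1.51 with 1 library left out (0.07 without CD49a+ NK replicate 2), with no adjusted p under 0.1. Against NK cells from MFL, 1 rose in CD49a+ NK cells with limma-voom, and in CD49a- NK cells 1 fell with DESeq2 and 0 to 1 with 1 library left out, with a median of -0.56 under limma-voom. For ILC1 against NK cells 16 fell with limma-voom and 3 in the fit of the 2 groups. For CD49a+ NK cells against ILC1, where 3 rose, 9 rose with DESeq2, 10 with limma-voom and 0 to 8 with 1 library left out. For the difference between sites, where 2 passed, 1 passed with limma-voom, 1 with the replicate block and 0 to 4 with 1 library left out.

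Counts over all genes moved too. In the order of the comparison within LM, CD49a+ and CD49a- NK cells against NK cells from MFL, ILC1 against NK cells, CD49a+ NK cells against ILC1 and the difference between sites, edgeR called 19, 88, 10, 416, 486 and 140 genes, DESeq2 543, 365, 161, 667, 1010 and 349, limma-voom 0, 307, 104, 2645, 935 and 180, and edgeR without the filter 200, 371, 158, 599, 774 and 264. The fits of 2 groups called 11, 106, 5, 1213 and 499. With 1 library left out the counts ran from 5 to 284, 25 to 162, 1 to 107, 267 to 562, 244 to 725 and 67 to 261. Up to 8 of the 44 genes had no counts in a lymphocyte library, and the part of depth or of the number of genes detected was not tested.

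The study describes independent sortings of the pooled lymphocyte samples, and neither labels nor methods say whether a replicate number marks a sort. Same-numbered libraries had correlations of deviations from -0.0452 to 0.0981 in lymphocytes and of 0.172, -0.0145 and 0.0272 in MAMs, and not every library correlated best with its own number. Such values cannot decide whether libraries of 1 number share a sort. With the replicate block 0 members rose within LM (Mcm7 adjusted p = 0.125, log2 fold change 1.44 in the unblocked fit), 1 passed in the difference between sites, and the numbers of genes called were 24, 101, 15, 445, 484, 127 and, in MAMs, 7512.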
